A study of Mus musculus with 8 samples.

Results

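The Hox genes of hematopoietic cluster cells and endothelial cells were followed in 8 RNA-Seq libraries from the E11.5 mouse AGM region taken with the vitelline and umbilical arteries (AGM+VU). The members were all genes whose symbol is Hoxa, Hoxb, Hoxc or Hoxd followed by a position number, which gave 39 of the 24015 genes in the table. Of these 39, 29 had enough counts to be tested, among 13908 genes tested in all. The study asked what the loss of Kitl, the ligand of the receptor Kit, does to the cells that make blood in the embryo. The gate for cluster cells was Ter119- VE-Cadherin+ Kit+. Endothelial cells were also Ter119- and VE-Cadherin+ but carried no Kit, CD41 or CD45. The embryos were either wild type or Sl/Sl, the Steel mutant in which a deletion on both alleles takes away Kitl in every cell. Each of the 4 groups had 2 libraries of 100 cells, and each library came from a pool of 1 to 4 embryos of a genotype. The libraries came from 2 sorting experiments, which the labels do not tie to samples. The p-values therefore measure the spread between these pools of sorted cells.

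Hox genes encode homeodomain transcription factors. They lie in 4 clusters, and within a cluster the genes with low position numbers are used toward the head and those with high numbers toward the tail of the embryo. The factors bind DNA together with cofactors of the Meis and Pbx families. In blood, the genes of the Hoxa cluster around Hoxa9 are known for their activity in stem and progenitor cells and Hoxb4 for the expansion of stem cells in culture, whereas in vessels several Hox genes are known to set the angiogenic or the quiescent state of endothelial cells.

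In mm9, the build of the deposited table, the Hoxa cluster took up 105.5 kb of the minus strand at chr6:52105366-52210874 with 11 genes. The Hoxb cluster held 10 genes over 173.9 kb at chr11:96055675-96229567, the Hoxc cluster 9 genes over 115.7 kb at chr15:102751562-102867283, and the Hoxd cluster 9 genes over 96.8 kb at chr2:74506367-74603199, all on the plus strand. Only Hoxa3 and Hoxa11 shared exon bases with another gene of the table, in each case an antisense gene, Hoxa11 over 24.8% of its exon length. Since the strand setting of the counting is not given in the sources used here, reads of Hoxa11 and Hoxa11os cannot be told apart.

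The promoters of Hoxd8 and Hoxd3, both called between the cell types, and of Hoxa9, the Hox gene with the highest level, are shown. For Hoxb7 and Hoxa4, which were also called, no promoter is shown. Each is 300 bases long, from 250 bases before to 50 bases after the RefSeq start in GRCm38.p6, read 5′ to 3′ on the strand of the gene, with matches to the searched motifs in capitals. Hoxd8 (chr2:74704365-74704664, plus strand) and Hoxd3 (chr2:74711743-74712042, plus strand) each held a CCAAT box, for Hoxd8 on the strand shown and for Hoxd3 on the other strand. Hoxa9 (chr6:52227321-52227620, minus strand) held none of the motifs.
Hoxd8: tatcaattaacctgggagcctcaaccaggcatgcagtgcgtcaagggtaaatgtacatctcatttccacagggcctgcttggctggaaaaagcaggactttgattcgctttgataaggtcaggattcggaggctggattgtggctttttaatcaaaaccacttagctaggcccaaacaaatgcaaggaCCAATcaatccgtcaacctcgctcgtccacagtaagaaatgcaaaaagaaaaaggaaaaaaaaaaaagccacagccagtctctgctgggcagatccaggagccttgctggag
Hoxd3: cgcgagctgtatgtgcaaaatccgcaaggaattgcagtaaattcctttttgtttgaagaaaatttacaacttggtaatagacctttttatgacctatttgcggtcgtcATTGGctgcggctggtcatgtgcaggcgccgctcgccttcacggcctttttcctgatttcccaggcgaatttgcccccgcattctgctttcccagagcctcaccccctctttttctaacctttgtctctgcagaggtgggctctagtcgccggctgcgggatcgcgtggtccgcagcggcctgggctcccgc
Hoxa9: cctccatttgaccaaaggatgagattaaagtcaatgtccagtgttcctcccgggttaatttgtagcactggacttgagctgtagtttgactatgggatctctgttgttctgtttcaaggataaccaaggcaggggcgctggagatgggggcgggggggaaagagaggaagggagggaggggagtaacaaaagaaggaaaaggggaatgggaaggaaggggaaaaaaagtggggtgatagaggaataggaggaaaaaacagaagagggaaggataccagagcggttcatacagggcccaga
The motifs, sought on both strands, were the TATA box TATAAA, the MEIS-type site TGACAG, the PBX-HOX-type site TGATTNAT, the GATA-type site AGATAA and the CCAAT box CCAAT, none of which contains another. RefSeq gave 24 promoters for 22 of the 39 Hox genes. CCAAT stood in 15 of these 24 (62.5%) and in 37.41% of all 32851 promoters of that length. TATAAA stood in 4 of the Hox promoters against 13.62% of all, TGACAG in 2 against 19.18%, TGATTNAT in 2 (Hoxa2 and Hoxd11) against 3.22%, and AGATAA in 0 against 11.18%. The Hox promoters had a median GC content of 57.67% against 52.67% over all promoters. These matches describe letters in a window and are not sites of binding.

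Counts on genes summed to between 8933236 and 13428214 per library, and Hox genes took between 2475 and 5430 of these counts. SMARTSEQ2 attaches no molecular identifiers, so the counts are of reads and not of molecules. Bounds taken from 0 counts cover counting error only, whereas the SEs come from the fitted spread between libraries. The endothelium of wild type embryos held 1250 and 923 counts of Kitl and that of Sl/Sl embryos 6 and 2. For clusters the counts were 110 and 0 against 1 and 3, so Kitl does not set the library labelled wild type clusters replicate 2 apart from the Sl/Sl libraries. Of the sort markers, Kit and Ptprc, the gene for CD45, were lower in endothelium (edgeR's quasi-likelihood test, Benjamini-Hochberg adjusted p = 0.000802 and 6.44e-05), and Cdh5, the gene for VE-Cadherin, was higher (adjusted p = 0.0618, edgeR), though both gates asked for VE-Cadherin. Itga2b, the gene for CD41, did not pass (adjusted p = 0.280, edgeR), with 53, 44, 109 and 90 counts in endothelium and 255, 168, 109 and 271 in clusters.

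Hox transcripts were found in both cell types, and the clusters of genes were used unequally. Levels are given in RPKM, counts scaled to the exon length of the gene and to the total of the library, so that genes of different length can be compared. The summed RPKM of the 39 Hox genes was 195.8 and 153.1 in wild type endothelium, 184.9 and 182.3 in the Sl/Sl endothelium, 127.0 and 74.9 in wild type clusters, and 128.9 and 147.7 in Sl/Sl clusters. The 4 endothelial libraries therefore all lay above the 4 cluster libraries. The group means were 174.5 ± 30.2 (SD, n = 2) and 183.6 ± 1.86 for wild type and Sl/Sl endothelium, and 101.0 ± 36.8 and 138.3 ± 13.3 for wild type and Sl/Sl clusters.

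The Hoxa genes made up most of the Hox level in the clusters of cells and less than that in endothelium. They held 81.9% and 69.8% of the summed Hox RPKM in wild type clusters, 74.0% and 51.8% in Sl/Sl clusters, and between 30.8% and 43.8% in the 4 endothelial libraries. The summed level of the Hoxa genes themselves overlapped, at 56.0 to 80.9 RPKM in endothelium and 52.3 to 104.0 RPKM in clusters. The Hoxb genes summed to between 43.5 and 68.0 RPKM in endothelium and between 2.94 and 21.7 RPKM in clusters, with no overlap. The Hoxd genes summed to 58.2, 22.6, 56.3 and 49.0 RPKM in endothelium and to 9.02, 14.3, 8.53 and 29.1 RPKM in clusters, where the highest cluster library, Sl/Sl replicate 2, lay above wild type endothelium replicate 2. The Hoxc genes were low throughout, at 4.20 to 13.6 RPKM in endothelium and 2.24 to 25.0 RPKM in clusters.

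**Figure D1:**
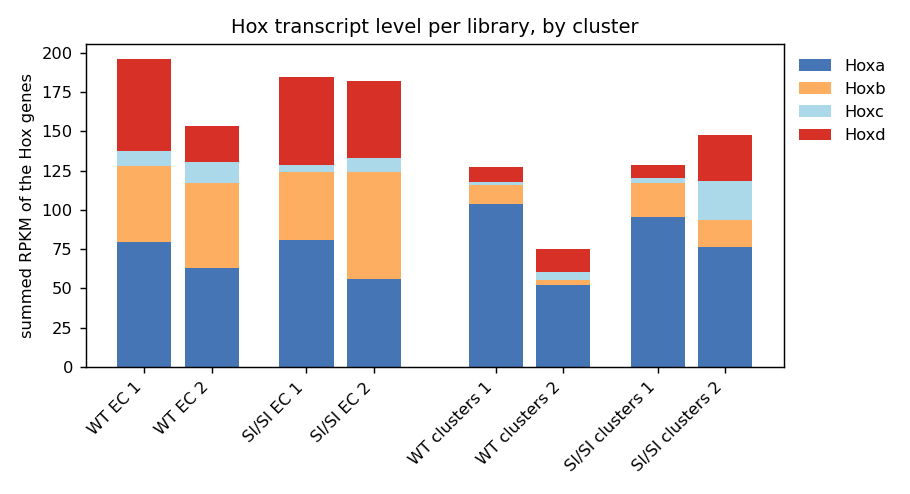
Summed RPKM of the Hox genes in each of the 8 libraries, stacked by cluster (Hoxa, Hoxb, Hoxc, Hoxd); the axis starts at 0 and each bar is 1 library. The endothelial bars reach 153.1 to 195.8 RPKM and the cluster bars 74.9 to 147.7 RPKM, while the Hoxa part is of like height in both cell types.

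By position number, the sums of the anterior and of the central genes stood apart between the cell types. Genes of positions 1 to 4 summed to between 32.4 and 44.4 RPKM in the 4 endothelial libraries and to between 7.65 and 26.5 RPKM in the 4 cluster libraries. Genes of positions 5 to 8 summed to between 69.7 and 104.5 RPKM in endothelium and to between 15.7 and 57.3 RPKM in clusters. For both sets the sums did not overlap between the cell types. The anterior sums hold Hoxa4 (3.57 to 9.79 RPKM in endothelium, 0 to 1.71 in clusters) and Hoxd3 (1.93 to 5.70 against 0.0257 to 0.713). Of the 10 tested anterior genes, 9 had a log2 difference of endothelium minus clusters above 0 and 1 below. The central sums hold Hoxb7 (10.9 to 34.5 RPKM in endothelium, 0.0627 to 7.56 in clusters) and Hoxd8 (14.7 to 38.3 against 4.20 to 11.8). Of the 8 tested central genes, 5 had a log2 difference of endothelium minus clusters above 0 and 3 below. Over all tested genes, 47.4% were above 0. Hoxb7 and Hoxd8 also enter the sums over all 39 Hox genes, as do Hoxa4 and Hoxd3. No sum was taken without these 4 called genes. Whether the gaps in the summed levels hold without them was not tested, so the gaps are not shown to be a trait of the whole set. Genes of positions 9 to 13 did overlap, at 66.9, 29.8, 70.8 and 43.2 RPKM in endothelium against 56.7, 51.6, 57.7 and 72.3 RPKM in clusters. This set includes Hoxa9. No test is given for these sums over the members. In libraries of pooled cells, fewer cells that carry a transcript and less of it in each cell cannot be told apart.

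**Figure D2:**
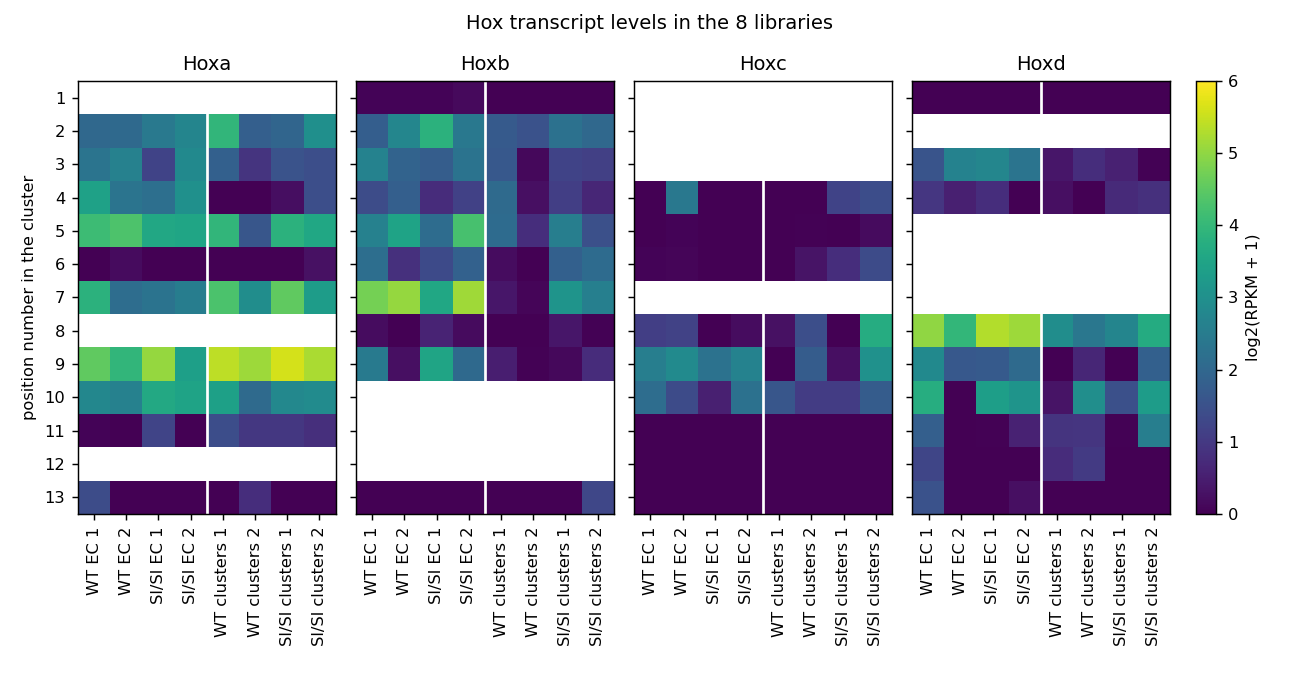
Level of each Hox gene, as log2(RPKM + 1), in the 8 libraries (columns) by cluster (panels) and position number (rows); blank rows are positions with no gene shown, and the white line parts endothelium from clusters. Hoxa9 is bright in all 8 libraries, Hoxb7 and Hoxd8 are brighter in endothelium, and the genes from Hoxc11 to Hoxc13 are at 0 throughout.

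Of the 39 genes, 10 were not tested for want of counts, and 6 of these had at most 3 counts in every library (Hoxa6, Hoxb1, Hoxc11, Hoxc12, Hoxc13 and Hoxd1). Hoxc11, Hoxc12, Hoxc13 and Hoxd1 had 0 counts in all 8 libraries, which was taken to allow up to 3 counts in each. Hoxb13, a gene of the tail bud, had 25 counts in Sl/Sl clusters replicate 2 and 0 elsewhere. Hoxd13, known from the tip of the limb and the genital bud, had 59 counts in wild type endothelium replicate 1 and 4 in the Sl/Sl endothelium replicate 2. Hoxb8 reached 16 counts in Sl/Sl endothelium replicate 1 and Hoxc5 at most 5. Spearman correlations between replicates were 0.452 to 0.755 over the 29 tested Hox genes and 0.885 to 0.899 over all tested genes, with the caution that genes are not independent and that most Hox genes have low counts.

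To ask which Hox genes differed between endothelium and clusters, the 4 endothelial libraries were compared with the 4 cluster libraries over both genotypes. Hoxb7, Hoxd8, Hoxa4 and Hoxd3 were higher in endothelium, and no Hox gene was lower. These 4 genes made 13.8% of the 29 tested Hox genes, where 8.48% of all tested genes were higher in endothelium. The 0 Hox genes that were lower stand against 8.12% of all tested genes, and in either direction 16.6% of all tested genes passed, so the Hox share was no higher than that. DESeq2 called 7 of the 28 Hox genes with an adjusted p higher in endothelium (25%), against 12.1% of all genes, and 8 in either direction (28.6%), against 25.5%. The 4 endothelial libraries all lay above the 4 cluster libraries for 6 Hox genes (20.7%), among them the 4 called genes and Hoxb3, against 10.1% of all tested genes. They all lay below for 0 Hox genes, against 9.57% of all tested genes.

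Hoxb7, a central gene of the Hoxb cluster (chr11:96147960-96151477, plus strand, 2 exons) that is known for driving angiogenic factors in tumor cells, showed the firmest difference. Its level was 25.7 and 32.0 RPKM in wild type endothelium, 10.9 and 34.5 in the Sl/Sl endothelium, 0.293 and 0.0627 in wild type clusters, and 7.56 and 4.99 in Sl/Sl clusters. Every endothelial library thus lay above every cluster library, and the wild type clusters held 4 and 1 counts. The difference on the log2 scale was 4.71 ± 0.73 (SE), or 26.3-fold, with an adjusted p of 0.00459 by edgeR's quasi-likelihood test and Benjamini-Hochberg adjustment. This is a mean over 2 unlike values. Within wild type the log2 difference was 7.44 ± 1.18 (SE), or 174-fold, against clusters with 4 and 1 counts. Within Sl/Sl it was 1.99 ± 0.90 (SE), or 3.96-fold, and did not pass (adjusted p = 0.354, edgeR).

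Hoxd8, a central gene of the Hoxd cluster (chr2:74542672-74545989, plus strand, 3 exons) known from lymphatic and blood vessel endothelium, was the second highest Hox gene by its mean over all libraries. It stood at 31.1 and 14.7 RPKM in wild type endothelium, 38.3 and 33.6 in the Sl/Sl endothelium, 6.72 and 4.20 in wild type clusters, and 5.64 and 11.8 in Sl/Sl clusters. The lowest endothelial library was still above the highest cluster library. The difference was 2.19 ± 0.42 (SE) on the log2 scale, or 4.56-fold, with an adjusted p of 0.0124 by edgeR's quasi-likelihood test. Hoxd8 differed by nearly the same amount in each genotype, 2.19 in wild type and 2.18 in Sl/Sl on the log2 scale.

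Hoxa4, an anterior gene of the Hoxa cluster (chr6:52139686-52141702, minus strand, 2 exons), was detected in all endothelial libraries with 192, 64, 65 and 97 counts. In wild type clusters it had 0 and 0 counts, and in Sl/Sl clusters 3 and 35. Taking each 0 to allow 3 counts, the level in wild type endothelium was at least 44.1-fold that in wild type clusters. That bound covers counting error only, and replicates could differ by more. In each group 4.17% to 6.36% of tested genes had 3 counts or fewer in 1 replicate and 50 or more in the second. The adjusted p of Hoxa4 over both genotypes was 0.0356 by edgeR's quasi-likelihood test. Of its Hoxa neighbors, Hoxa5, Hoxa7, Hoxa9 and Hoxa10 did not pass the threshold in this fit, nor did Hoxa3, with a log2 difference of 1.37 ± 0.91 (SE). Hoxa9 passed under some other settings, given below. No test compared the genes with each other.

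Hoxd3, an anterior gene (chr2:74550050-74586328, plus strand, 3 exons) known to move endothelial cells toward an invasive, angiogenic state, was low in both cell types. It had 1.93 and 5.35 RPKM in wild type endothelium, 5.70 and 3.93 in the Sl/Sl endothelium, 0.288 and 0.713 in wild type clusters, and 0.460 and 0.0257 in Sl/Sl clusters. The cell types did not overlap, yet the adjusted p of 0.0810 by edgeR's quasi-likelihood test, for a log2 difference of 3.69 ± 1.17 (SE), was close to the threshold of 0.1. The call was lost when any of 6 libraries was left out, wild type endothelium replicate 1 and Sl/Sl clusters replicate 1 being the exceptions, with adjusted p-values up to 0.193. It was also lost at a threshold of 0.05 and with the replicate number as a block (adjusted p = 0.110, edgeR).

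**Figure D3:**
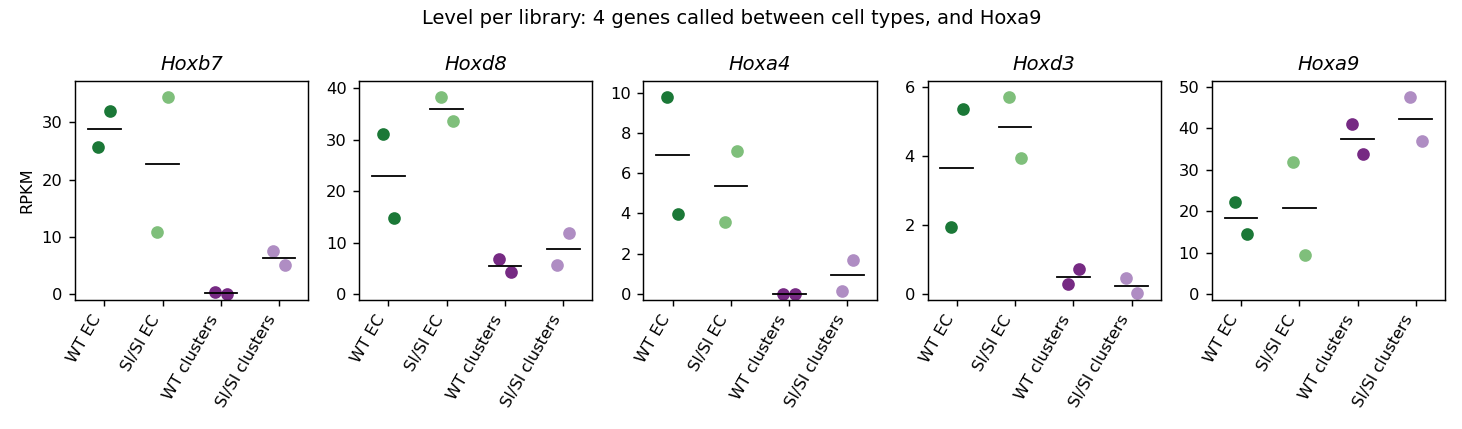
RPKM of Hoxb7, Hoxd8, Hoxa4, Hoxd3 and Hoxa9 in each library (points) with the mean of the 2 libraries of each group (line); EC stands for endothelium, WT for wild type, and each axis starts at 0. The first 4 genes are higher in all endothelial libraries than in all cluster libraries, while Hoxa9 lies at 9.39 to 32.0 RPKM in endothelium and 33.8 to 47.6 RPKM in clusters.

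Hoxa9 (chr6:52173096-52177369, minus strand, 2 exons), which sustains blood stem and progenitor cells, was the highest Hox gene, with a mean of 29.7 RPKM over the 8 libraries. It stood at 22.3 and 14.4 RPKM in wild type endothelium, 32.0 and 9.39 in the Sl/Sl endothelium, 41.0 and 33.8 in wild type clusters, and 47.6 and 36.9 in Sl/Sl clusters. It ranked first among Hox genes in all 4 cluster libraries and 3, 4, 2 and 6 in the endothelial libraries. In clusters it alone made up 32.3%, 45.1%, 36.9% and 25.0% of the summed Hox RPKM, against 5.15% to 17.3% in endothelium.

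Although all cluster libraries had a higher Hoxa9 RPKM than all endothelial libraries, the ranges overlapped in CPM after TMM scaling, and Hoxa9 did not pass the test. The difference was -0.91 ± 0.37 (SE) on the log2 scale, endothelium minus clusters, with an unadjusted p of 0.0367 and an adjusted p of 0.159 by edgeR's quasi-likelihood test and Benjamini-Hochberg adjustment. This call hung on the settings, since Hoxa9 passed with DESeq2 (adjusted p = 0.0778), without a filter on low counts (adjusted p = 0.0271, edgeR), with the replicate number as a block (adjusted p = 0.0727, edgeR) and without Sl/Sl endothelium replicate 1 (adjusted p = 0.0174, edgeR). Over the 13 alternatives the adjusted p ran up to 0.315.

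The other well expressed Hoxa genes did not separate the cell types. Hoxa5, known to hold endothelial cells quiescent, had 16.4, 19.1, 11.1 and 10.6 RPKM in the wild type and Sl/Sl endothelium and 14.4, 2.04, 13.5 and 10.99 RPKM in the wild type and Sl/Sl clusters. Hoxa7 had 13.4, 3.42, 3.88 and 4.82 RPKM in endothelium and 18.8, 6.69, 22.0 and 9.01 RPKM in clusters, in the same order of libraries. Hoxa10, a gene of early progenitors and of the uterus, had 5.85, 5.22, 11.3 and 10.2 RPKM against 9.71, 3.22, 6.00 and 6.45 RPKM. All 3 overlapped between cell types, with log2 differences of 0.61 ± 0.61, -1.09 ± 0.65 and 0.42 ± 0.49 (SE).

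Among the anterior genes, Hoxa2, known from the hindbrain and branchial arches, had 3.07, 3.17, 4.35 and 5.61 RPKM in endothelium and 14.5, 2.51, 2.87 and 6.96 RPKM in clusters. Its direction rested on wild type clusters replicate 1, the highest library, without which the log2 difference turned from -0.56 to 0.28. Hoxb2 had 2.44, 5.73, 13.6 and 4.33 RPKM in endothelium and 2.23, 1.86, 3.74 and 3.06 RPKM in clusters, a log2 difference of 1.33 ± 0.87 (SE) that did not pass.

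Of the other Hoxb genes, Hoxb5, which can turn on the VEGF receptor gene Kdr, had 5.18, 10.2, 3.37 and 18.2 RPKM in endothelium and 3.29, 0.714, 4.93 and 1.77 RPKM in clusters. The ranges overlapped, and the log2 difference of 1.96 ± 0.89 (SE) had an adjusted p of 0.197 by edgeR's quasi-likelihood test. Hoxb4, the stem cell gene, was low in both cell types, at 0.688 to 2.52 RPKM in endothelium and 0.186 to 3.23 RPKM in clusters. All 7 tested Hoxb genes had a log2 difference above 0, and 1 of them, Hoxb7, passed the test. In the Hoxa cluster 6 of 10 tested genes were above 0 and 1 passed, in the Hoxc cluster 3 of 5 and none passed, and in the Hoxd cluster 5 of 7 and 2 passed. Of all tested genes, 47.4% were above 0 and 8.48% were called higher.

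Several genes of the Hoxc and Hoxd clusters were high in single libraries and not in their replicates. Hoxd10, known as a gene of the quiescent endothelium, had 12.3, 0, 9.31 and 7.62 RPKM in endothelium and 0.251, 6.84, 1.76 and 9.02 RPKM in clusters. Its log2 difference of 0.83 turned to -4.20 without wild type endothelium replicate 1. In that fit a single library at 0 counts stood for wild type endothelium, so the size of -4.20 is set by that 0. Hoxc9, which restrains vessel growth, had 4.94, 6.32, 3.76 and 5.27 RPKM in endothelium and 0, 2.36, 0.194 and 7.23 RPKM in clusters. The highest cluster value belonged to Sl/Sl clusters replicate 2, which was also the highest of the 8 libraries for Hoxc8, with 384 counts, and for Hoxd11, with 276 counts.

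That library also stood out for markers of mesenchyme, cells outside the vessel wall lining. The summed CPM of 12 mesenchymal markers, all detected in clusters, was 4933 in Sl/Sl clusters replicate 2 and 42.2 in Sl/Sl clusters replicate 1, against 884.2 and 1136 in wild type clusters and 139.1 to 1643 in endothelium. Sl/Sl clusters replicate 1 had 0 counts of Hoxc8, 1 of Hoxd11 and 4 of Hoxc9. The part of the mesenchymal markers in these Hox values was not tested. In the endothelial library with the lowest mesenchymal sum, 139.1 CPM in Sl/Sl replicate 1, Hoxd8 was at its highest (38.3 RPKM) and Hoxd3 too (5.70 RPKM), whereas Hoxb7 (10.9 RPKM) and Hoxa4 (3.57 RPKM) were at their endothelial lowest. Across the 4 endothelial libraries Hoxa4 followed the order of the mesenchymal sum. It ran from 9.79 RPKM at 1643 CPM over 7.11 at 1204 and 3.99 at 223.9 to 3.57 at 139.1 CPM. In wild type clusters, with sums of 884.2 and 1136 CPM, Hoxa4 was at 0 RPKM in both libraries. In Sl/Sl clusters it was at 0.164 RPKM with 42.2 CPM and at 1.71 RPKM with 4933 CPM. The part of mesenchymal transcripts in the called genes was not tested either. The 12 endothelial markers summed to between 5648 and 6420 CPM in endothelium and to 1097, 241.0, 2435 and 564.6 CPM in the wild type and Sl/Sl clusters. Hoxb7 in clusters was highest, at 7.56 RPKM, in the library with the highest endothelial sum, Sl/Sl clusters replicate 1, though Sl/Sl clusters replicate 2 had 4.99 RPKM of Hoxb7 with an endothelial sum of 564.6 CPM and wild type clusters replicate 1 had 0.293 RPKM with 1097 CPM. The part of endothelial transcripts in the cluster values was not tested.

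The markers of other cells that the gates could hold were spread as follows. The 8 macrophage markers summed to between 6.56 and 34.9 CPM in endothelium and to between 256.0 and 815.1 CPM in clusters. The 8 skeletal muscle markers summed to 364.9 and 511.6 CPM in Sl/Sl clusters and to at most 89.5 CPM elsewhere. Most of that was Actc1, with 4078 and 4692 counts. Myod1, Myf5 and Myog were at 0 in Sl/Sl clusters replicate 1, and Pax3 and Pax7 in all libraries. In Sl/Sl clusters replicate 2, Myod1 had 81 counts, Myf5 60, Tnnt1 924, Mylpf 1564 and Myog 0. Wild type endothelium replicate 2 had 61 counts of Myod1 and 22 of Myf5, and wild type clusters replicate 2 had 62 of Myf5. Nephric, germ cell and neural crest markers summed to at most 107.3 CPM in any library, and Lhx1, Cdh16 and Pou5f1 were at 0 throughout. Some single markers were uneven between replicates. Dppa3 (889 counts) and Tfap2c (94) were found in wild type clusters replicate 1 only. Wild type endothelium replicate 1 had 288 counts of Wt1, 106 of Osr1 and 166 of Sox10, and replicate 2 had 0 of each. The erythroid markers reached 266.2 CPM in Sl/Sl clusters replicate 1. The part of these cells in the Hox values was not tested.

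**Figure D4:**
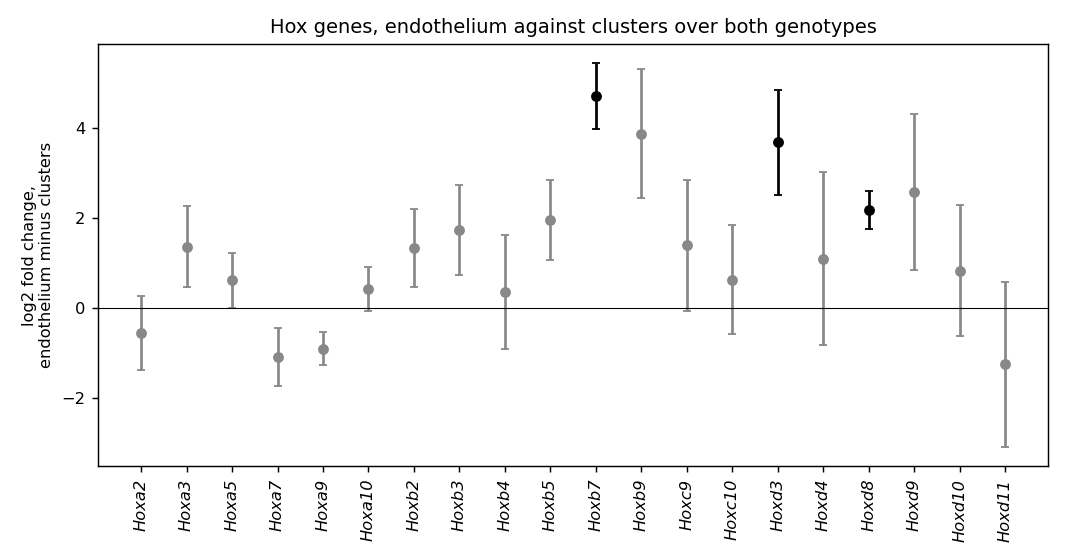
Log2 fold change of endothelium minus clusters over both genotypes, with its SE, for 20 Hox genes with more than 3 counts in some library of each group, in order of cluster and position; black points passed the test (Hoxb7, Hoxd3, Hoxd8). Of the 20 points, 16 lie above 0, and Hoxa4 is not drawn because both wild type cluster libraries had 0 counts.

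Over the 29 tested Hox genes the median log2 difference was 0.83, and over all 13908 tested genes it was -0.07. The 0.83 is the value of Hoxd10, whose SE was 1.45. Over the 21 Hox genes with more than 3 counts in some library of each group, the median was 1.33. As the members share clusters, libraries and depth, these medians describe the set and carry no test. The anterior genes had a median of 1.35 with 2 of 10 called, and the central genes 1.28 with 2 of 8. The posterior genes had a median of 0.59 with 0 of 11 called. Of all tested genes, 8.48% were called higher and 8.12% lower. The posterior median is the value of Hoxa13, which had an SE of 1188 and was over 3 counts in 2 libraries only. It therefore does not give a typical posterior difference.

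Within wild type alone, Hoxb7, Hoxa4 and Hoxd8 were higher in endothelium. These 3 genes were 10.3% of the tested Hox genes, beside 4.56% of all tested genes that were higher and 3.68% that were lower in wild type endothelium. DESeq2 called 4 Hox genes here, adding Hoxb6, where 19.8% of all genes passed. The log2 difference was 7.44 ± 1.18 (SE) for Hoxb7, with an adjusted p of 0.0103, and 2.19 ± 0.60 for Hoxd8, with an adjusted p of 0.0772, both by edgeR's quasi-likelihood test. The adjusted p for Hoxa4 was 0.0704. Without wild type endothelium replicate 1, or without either of the wild type cluster libraries, 1 of these calls was left.

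Within Sl/Sl alone, edgeR's quasi-likelihood test called 0 Hox genes, while 0.985% of all tested genes were higher and 1.84% lower in Sl/Sl endothelium. At an unadjusted p under 0.05 there were 2 Hox genes (6.9%), Hoxd8 and Hoxd3, beside 14.4% of all tested genes. Hoxd8 had a log2 difference of 2.18 ± 0.60 (SE; adjusted p = 0.133) and Hoxb7 one of 1.99 ± 0.90 (SE; adjusted p = 0.354). DESeq2 called 3 Hox genes, Hoxd3 and Hoxd8 higher and Hoxc8 lower in endothelium, where 12.7% of all genes passed. Without wild type clusters replicate 1, which is in neither group but shares the estimate of the spread, edgeR called Hoxd8.

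The genotype comparison in clusters asked whether cluster cells that formed without Kitl differed in Hox transcripts. With edgeR's quasi-likelihood test 0 Hox genes passed, as did 0% of all tested genes. At an unadjusted p under 0.05 there were 2 Hox genes (6.9%), Hoxb7 and Hoxa4, beside 4.22% of all tested genes. Hoxb7 had 4 and 1 counts in wild type clusters and 115 and 85 counts in Sl/Sl clusters, so the groups did not overlap. Its log2 difference was 5.13 ± 1.09 (SE), Sl/Sl minus wild type, with an unadjusted p of 0.00101 and an adjusted p of 0.398 by edgeR's quasi-likelihood test. DESeq2 called Hoxb7 (adjusted p = 0.000460), as 1 of 25 Hox genes with an adjusted p (4%), where 1.36% of all genes passed. edgeR without a filter on low counts called it too, where 1.48% of all genes passed. Hoxa4 had 0 and 0 counts in the wild type clusters and 3 and 35 in the Sl/Sl clusters. Only Sl/Sl replicate 2 exceeded the 3 counts that a 0 was taken to allow, and the adjusted p was 1 by edgeR's test. Hoxa9 differed by 0.20 on the log2 scale in clusters, with an adjusted p of 1 by edgeR's test.

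In endothelium, no Hox gene passed between Sl/Sl and wild type. edgeR's quasi-likelihood test called 0 Hox genes and 0% of all tested genes, and 0 Hox genes had an unadjusted p under 0.05, beside 4.16% of all tested genes. DESeq2 called 0 Hox genes as well, where 1.35% of all genes passed. Hoxb7 spanned 25.7 to 32.0 RPKM in wild type and 10.9 to 34.5 RPKM in Sl/Sl, and Hoxa4 3.99 to 9.79 RPKM against 3.57 to 7.11 RPKM, so that both overlapped. Hoxd8 did not overlap, at 14.7 to 31.1 RPKM against 33.6 to 38.3 RPKM, and its log2 difference of 0.68 ± 0.57 (SE) had an adjusted p of 1 by edgeR's test. A p that misses the threshold does not show that the genotypes were alike.

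Whether the genotype difference itself differed between clusters and endothelium was tested as an interaction. edgeR's quasi-likelihood test called 0 Hox genes and 0% of all tested genes. At an unadjusted p under 0.05 there were 3 Hox genes (10.3%), Hoxb7, Hoxa4 and Hoxc4, beside 5.28% of all tested genes. The interaction of Hoxb7 was 5.46 ± 1.36 (SE) on the log2 scale, with an unadjusted p of 0.00294 and an adjusted p of 0.902 by edgeR's quasi-likelihood test. DESeq2 called Hoxb7 alone among the Hox genes (adjusted p = 0.0167), where 1.3% of all genes passed. Hoxc4 had 89 counts in wild type endothelium replicate 2, 31 and 44 in Sl/Sl clusters, and 0 in the other 5 libraries.

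Of the cofactors, Meis1 differed strongly, and in the direction opposite to the called Hox genes. Meis1, which binds DNA beside Hoxa9 and is needed for blood stem cells, had 7.72, 7.34, 4.71 and 12.1 RPKM in endothelium and 53.8, 61.2, 33.0 and 34.7 RPKM in clusters. Every cluster library exceeded every endothelial library. The difference was -2.34 ± 0.33 (SE) on the log2 scale, or 5.06-fold lower in endothelium, with an adjusted p of 0.00285 by edgeR's quasi-likelihood test, and it passed in each genotype alone (adjusted p = 0.0133 in wild type and 0.0962 in Sl/Sl). It was the only one of 9 tested cofactors that passed. Of all tested genes, 8.12% were lower and 8.48% higher in endothelium.

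**Figure D5:**
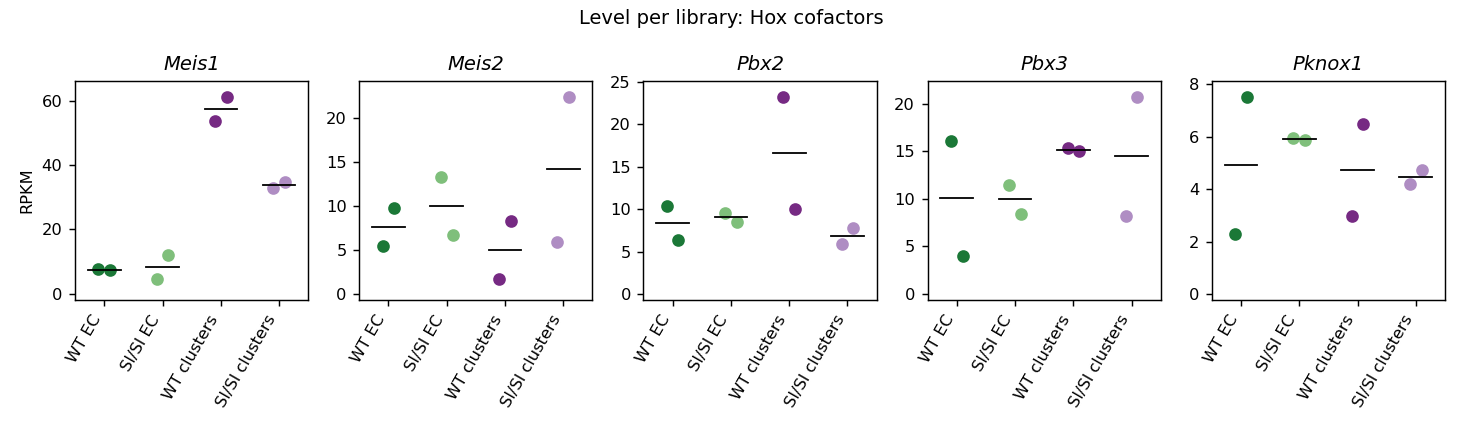
RPKM of the Hox cofactors Meis1, Meis2, Pbx2, Pbx3 and Pknox1 in each library (points) with group means (lines); EC stands for endothelium, WT for wild type, and each axis starts at 0. Meis1 lies at 4.71 to 12.1 RPKM in endothelium and 33.0 to 61.2 RPKM in clusters, and the libraries of the other 4 genes overlap between cell types.

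Of 21 genes that act upstream of Hox genes, 17 were tested, and 4 were lower in endothelium and 0 higher, beside 8.12% and 8.48% of all tested genes. Psip1, which tethers the Kmt2a complex that keeps Hox genes active, had 16.8, 14.6, 35.7 and 19.7 RPKM in endothelium and 63.4, 56.3, 31.6 and 50.1 RPKM in clusters, a log2 difference of -1.11 ± 0.26 (SE). The other 3 belong to the Polycomb complexes that keep Hox genes silent. Bmi1 had 5.85, 1.91, 2.59 and 3.11 RPKM in endothelium and 13.7, 14.5, 6.64 and 14.5 RPKM in clusters, and Cbx7 had 1, 2, 0 and 4 counts in endothelium against 121, 46, 138 and 59 counts in clusters. Suz12 had 17.0, 16.4, 22.1 and 14.5 RPKM in endothelium and 53.8, 47.9, 15.6 and 26.1 RPKM in clusters, where Sl/Sl clusters replicate 1 fell within the endothelial range. Adjusted p-values by edgeR's quasi-likelihood test were 0.0251 for Psip1, 0.0614 for Bmi1, 0.0718 for Cbx7 and 0.0854 for Suz12. Psip1 and Suz12 also passed within wild type alone and none within Sl/Sl. Kmt2a itself did not pass, nor did Ezh2 and Eed. The Cdx genes, which start Hox expression in the early embryo, were not tested: Cdx1 and Cdx2 had 0 counts in all 8 libraries, and Cdx4 had 20 counts in Sl/Sl clusters replicate 1 and 0 elsewhere.

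Of 11 noncoding RNA genes of the Hox clusters, 10 were in the table, 2 were tested and none passed. Hoxd3os1, named for its place opposite Hoxd3, had 19, 13, 45 and 24 counts in endothelium and 1, 0, 3 and 0 in clusters, and its adjusted p of 0.177 by edgeR's quasi-likelihood test missed the threshold. Hotair, of the Hoxc cluster, had 6 counts in wild type clusters replicate 2 only, and Hottip, beside Hoxa13, had 19 counts in wild type clusters replicate 1 only. Of 18 genes that flank the clusters, 14 were tested. In endothelium 1 was higher and 1 lower, beside 8.48% and 8.12% of all tested genes. Mtx2, a mitochondrial import gene next to the Hoxd cluster, was higher in endothelium by 0.65 ± 0.18 (SE) on the log2 scale, at 218.8 to 262.4 RPKM against 155.3 to 202.3 RPKM. Nfe2, an erythroid and megakaryocyte factor near the Hoxc cluster, was lower, at 0.268 to 2.01 RPKM in endothelium against 33.4 to 70.3 RPKM in clusters. The adjusted p was 0.0486 for Mtx2 and 0.00153 for Nfe2 by edgeR's quasi-likelihood test. No gene of these 4 lists passed in either genotype comparison or in the interaction.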

How the data were processed

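RNA was measured in 8 libraries, 2 per group, grouped by the titles of the samples. The authors prepared SMARTSEQ2 libraries, aligned read pairs to mm9 with STAR 2.4.2a and ran featureCounts (Subread 1.4.5). Their deposited table gives raw counts, not normalized, and the exon length of every gene; gene annotation, strand setting and the handling of multiply matching reads are not given in the sources used here. Total counts ran from 8933236 to 13428214, and limits from counts cover counting error only. In the table, 27 names had become dates and stay unnamed.

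All 8 libraries were fitted together (edgeR 4.0.16, limma 3.58.1, R 4.3.3) with TMM factors, filterByExpr and the quasi-likelihood test; p-values were adjusted by Benjamini-Hochberg over 13908 genes, with a threshold of 0.1 as in the study's methods. CPM used TMM-scaled totals and RPKM plain totals. A count of 0 was taken to allow 3 counts per library. Values per library are given for Hox genes called in any of 6 comparisons, the 12 with the highest mean RPKM and the highest of each cluster, 14 genes in all, of which 1 is not reported here. Hoxa3, Hoxa11, Hoxa13, Hoxb3, Hoxb4, Hoxb6, Hoxb8, Hoxb13, Hoxc4, Hoxc5, Hoxc8, Hoxd11 and Hoxd13 were named after their values were seen. The members and lists were chosen with earlier results of these data known. In the NCBIM37 annotation, 39 of 39 Hox genes overlapped the gene of the same name on the same strand. Promoters are from RefSeq (GRCm38.p6), where 22 of 39 Hox genes matched. The test was tested on simulated data. Alternatives were DESeq2 1.42.0, RLE size factors, no filter, a threshold of 0.05, fits on 4 libraries, a block for the replicate number, TMM-scaled RPKM and leaving out each library.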

Additional observations from a re-analysis of the deposited data

How the results depend on the processing

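For the 14 genes with values per library, 182 log2 differences between endothelium and clusters were recomputed under 13 alternatives. Of these, 165 kept their direction and their side of the threshold, 8 no longer passed, 7 newly passed and 2 reversed, Hoxd10 without wild type endothelium replicate 1 and Hoxa2 without wild type clusters replicate 1. With each library left out in turn, Hoxd10 ran from -4.20 to 2.73 and Hoxa2 from -0.97 to 0.28. The -4.20 of Hoxd10 rests on 1 library of wild type endothelium, at 0 counts, and its size is set by that 0. Hoxb7 (log2 difference 4.17 to 5.37), Hoxd8 (1.89 to 2.48) and Hoxa4 passed in 13 of 13, with adjusted p-values up to 0.0147, 0.0341 and 0.0950. All 8 lost calls were of Hoxd3, under the settings given with its values.

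With DESeq2, 8 Hox genes passed between cell types over both genotypes in place of 4, 3 within Sl/Sl in place of 0, and 1 (Hoxb7) both between genotypes in clusters and in the interaction. Without a filter on low counts, 1 Hox gene passed within Sl/Sl (Hoxd8), 1 in the genotype comparison of clusters and 1 in the interaction (both Hoxb7), while calls over all genes went from 393 to 1266, from 0 to 253 and from 0 to 179. At a threshold of 0.05, 1 (Hoxb7) passed within wild type, where 657 of all 13908 tested genes passed. Leaving out each library gave 1 to 3 Hox genes within wild type, 0 to 1 within Sl/Sl and 3 to 4 over both genotypes. With TMM-scaled totals the summed Hox RPKM of Sl/Sl endothelium was 193.2 in place of 183.6. With the replicate block, 4 Hox genes passed over both genotypes, Hoxa9 among them and Hoxd3 not, 3 within wild type and 0 in the other comparisons. Of all 13908 tested genes, 2126 passed over both genotypes with this block, 1179 within wild type and 452 within Sl/Sl. The labels tie the replicate numbers to no shared embryo or day, and deviations of same-numbered libraries correlated between -0.11 and 0.16, so the numbers were not taken to pair samples. Where a call moved, the cause was not tested.

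With 2 libraries a group, an exact permutation test of 2 against 2 cannot go below p = 0.333, and in each group between 580 and 885 genes (4.17% to 6.36% of those tested) were at 3 counts or fewer in either replicate while the second had 50 or more. Among the Hox genes these were Hoxc4, Hoxd10 and Hoxd11 in wild type endothelium, Hoxc9 in wild type clusters, and Hoxc8, Hoxd9 and Hoxd11 in Sl/Sl clusters.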
